A study of Mus musculus with 15 samples.

Results

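Hox cluster genes were taken as all probes whose gene name on the array is Hox, a cluster letter from a to d and a number. The rule found 52 probes for 39 genes, among 56605 probes for 37008 gene names in all. They comprise 11 Hoxa genes on chromosome 6, 10 Hoxb genes on chromosome 11, 9 Hoxc genes on chromosome 15 and 9 Hoxd genes on chromosome 2. RNA of mouse cells was hybridised to 15 one-colour Agilent arrays in 5 groups of 3. Pancreatic stellate cells (PSC), the fibroblast-like cells that lay down the matrix of pancreatic tumours, came from heterozygous mice (PSC HT) or wild-type mice (PSC WT) and were used after 2 weeks of culture, in the activated state. The locus at which PSC HT carry 1 changed allele is not named in the labels, so no probe could serve as its check, and neither strain nor age of the mice is given. Pancreatic cancer cells, whose line is not named, were kept for 24 h in medium conditioned by PSC HT (KHT), in medium conditioned by PSC WT (KWT) or in control medium (KC). Nothing states that the 3 arrays of a group came from separate mice or cultures, so p-values measure the spread between these arrays, which may be technical. The array had 11 of 11 stellate and fibroblast markers well above background on each PSC array, and 10 of 10 epithelial markers on each cancer cell array. Detection alone does not separate the cell types. Of the epithelial markers 6 or 7 were also well above background on each PSC array, and of the stellate ones 3 to 6 on each cancer cell array. Of 12 macrophage markers 10 to 12 were so on each PSC array and 6 on each cancer cell array.

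Hox genes encode homeodomain transcription factors and lie in 4 clusters, in each of which the genes are numbered by their place from 1 to 13. Genes of the same number in different clusters are paralogs. In the embryo, low-numbered genes are used toward the head and high-numbered genes toward the tail, and mesenchymal cells of adult organs are known to keep much of the pattern of their place of origin. Polycomb proteins keep unused Hox genes silent, Trithorax proteins keep used ones active, retinoic acid switches on low-numbered genes, and the TALE homeodomain proteins (Pbx, Meis and Pknox) bind DNA together with Hox proteins.

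A level is the log2 signal of a probe minus the 75th percentile of log2 signals on its array, so that 0 is the signal of a spot brighter than 3 in 4 others. That percentile corresponded to 913 to 1449 signal units, 54.3% to 63.8% of spots were well above background, and no spot was saturated. The lowest level well above background lay between -6.01 and -4.73, and it was highest on the array of PSC HT 3. That array also differed from the others in epithelial genes: Cdh1, which encodes the epithelial adhesion protein E-cadherin, stood at -2.45 there, against -7.65 and -7.70 on the other PSC HT arrays and -8.22 to -7.61 in PSC WT. The summed linear level of 10 epithelial markers was 6.42 and 7.16 on PSC HT 1 and 2 and 23.4 on PSC HT 3, against 13.9 to 14.8 in PSC WT and 641 to 720 in KC. Many of the genotype results named below are therefore also given without PSC HT 3. RNA was labelled through double-stranded cDNA, so a Hox transcript and one read from the opposite strand at the same place cannot be told apart. In such bulk samples, fewer cells of a type and less RNA per cell cannot be told apart either.

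Stellate cells carried signal from most of the Hoxa, Hoxb and Hoxc genes and from few Hoxd genes, and cancer cells from almost none. Taking the brightest probe of each gene, 25 of 39 genes were well above background on all 6 PSC arrays: 9 of 11 in Hoxa, 8 of 10 in Hoxb, 6 of 9 in Hoxc and 2 of 9 in Hoxd. In Hoxa they included Hoxa2 to Hoxa7, Hoxa9 and Hoxa10. In Hoxb they were Hoxb2 to Hoxb9, an unbroken run that leaves out only the genes at both ends, Hoxb1 and Hoxb13. In Hoxc they were Hoxc4, Hoxc5, Hoxc6, Hoxc8, Hoxc9 and, apart from the rest, Hoxc13. In Hoxd they were Hoxd4 and Hoxd8. Another 10 genes (Hoxa13, Hoxb1, Hoxc10, Hoxc11, Hoxd1, Hoxd3, Hoxd10, Hoxd11, Hoxd12 and Hoxd13) were well above background on no PSC array. Over the paralog numbers, 23 of 27 genes numbered 1 to 9 were detected on all 3 arrays of PSC HT and 23 of 27 on all 3 of PSC WT, while of 12 genes numbered 10 to 13 the counts were 3 and 3.

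**Figure D1:**
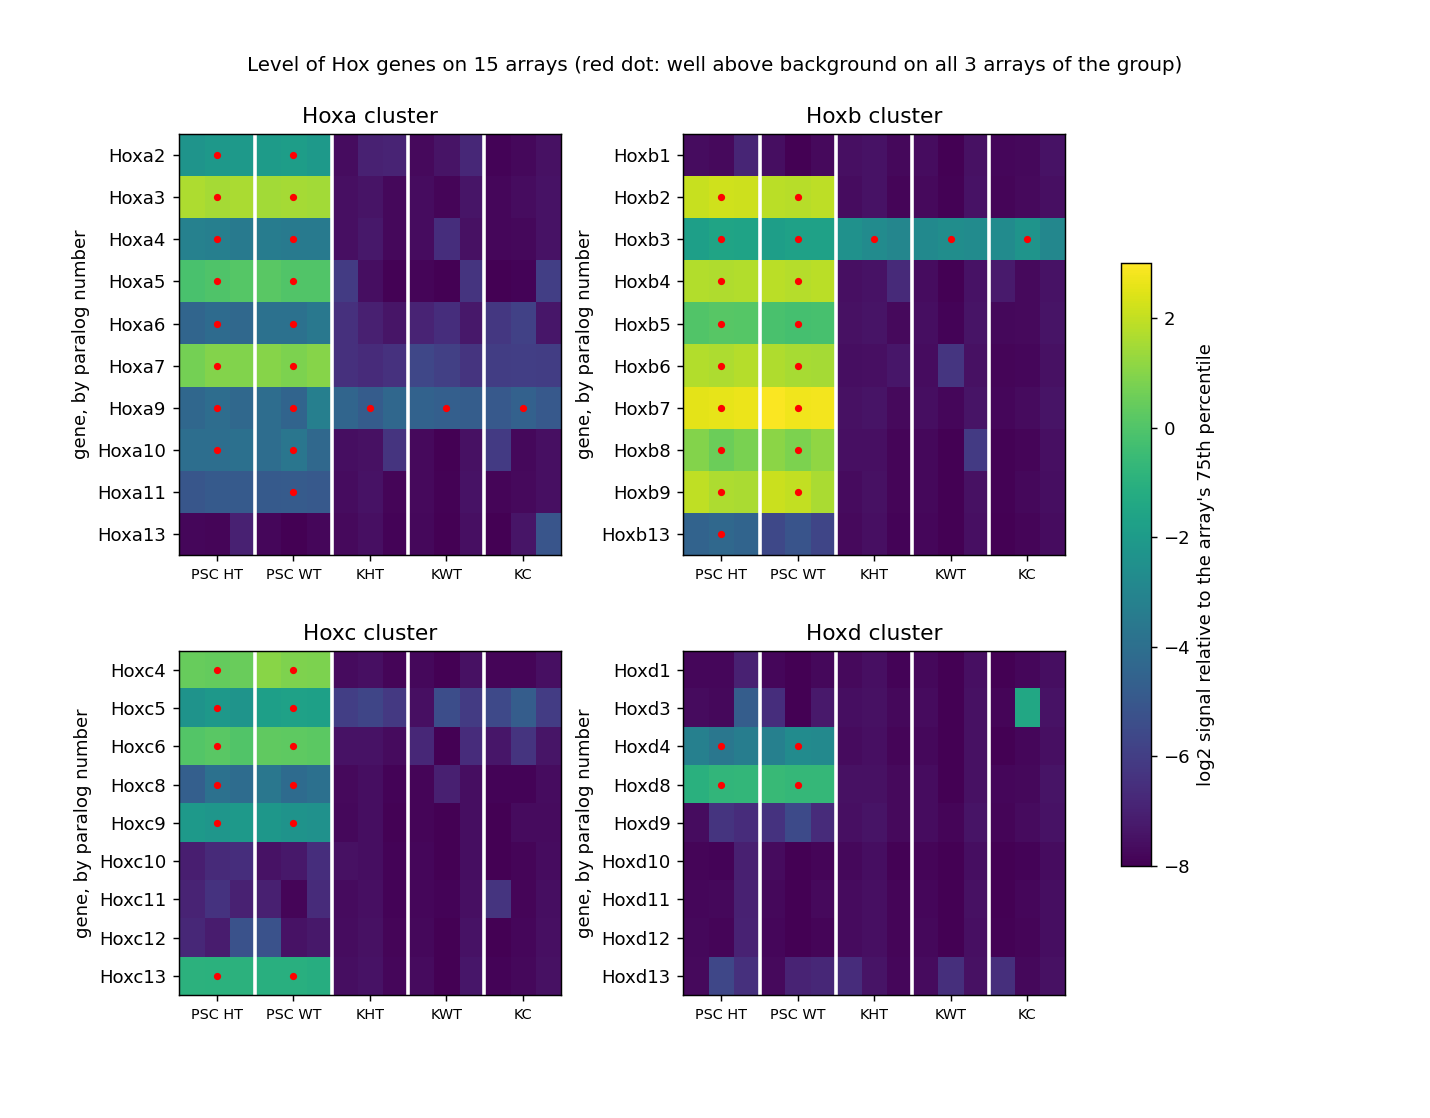
Level of each Hox gene shown (rows, by paralog number) on 15 arrays (columns, 3 per group; KHT, KWT and KC are cancer cells), as log2 signal relative to the array's 75th percentile, with a red dot where all 3 arrays of a group were well above background. PSC HT and PSC WT show the same blocks of Hoxa, Hoxb and Hoxc genes, while in cancer cells only Hoxa9 and Hoxb3 carry dots; colours of different genes come from different probes and are not comparable as amounts.

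The remaining 4 genes lay at the edge of detection in PSC. Hoxa11, a gene of limb and urogenital patterning, had levels of -5.07, -4.90 and -4.90 in PSC HT, with 2 of 3 arrays well above background, against -4.89, -4.86 and -4.93 in PSC WT, with 3 of 3. Its groups differed by less than the spread between arrays, and the array that missed detection, PSC HT 3, is the one with the highest limit. Hoxc12 reached detection on PSC WT 1 alone, at -5.23, and Hoxd9 on PSC WT 2 alone, at -5.54. Hoxb13, the highest-numbered gene of the Hoxb cluster, is described with the genotypes.

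In cancer cells, 34 of 39 Hox genes were well above background on none of 9 arrays. Hoxa9 and Hoxb3 were on all 9. Hoxa13, Hoxc5 and Hoxd3 were on 1 or 2 arrays. A total of 22 Hox genes were detected on all 6 PSC arrays and on no cancer cell array, which is 56.4% of Hox genes, against 2.63% of all gene names by the same rule. The opposite pattern, all 9 cancer cell arrays and no PSC array, was shown by 0 Hox genes, against 1.35% of all gene names. Over probes rather than genes, 27 of 52 Hox probes (51.9%) were PSC-only, against 2.80% of all probes.

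The stretches of 250 bases before the transcription start are shown for the 3 genes of paralog group 4 with an entry that were read in PSC and not in cancer cells, Hoxc4, Hoxb4 and Hoxd4, and for Hoxd3, the neighbour of Hoxd4 that was not detected in PSC. They are from RefSeq (build GRCm38.p6), all on the plus strand, at chr15:103034145-103034394, chr11:96318017-96318266, chr2:74721728-74721977 and chr2:74711743-74711992. Capitals mark CpG dinucleotides, because CpG-rich promoters are a known feature of many genes that Polycomb proteins bind.
Hoxc4: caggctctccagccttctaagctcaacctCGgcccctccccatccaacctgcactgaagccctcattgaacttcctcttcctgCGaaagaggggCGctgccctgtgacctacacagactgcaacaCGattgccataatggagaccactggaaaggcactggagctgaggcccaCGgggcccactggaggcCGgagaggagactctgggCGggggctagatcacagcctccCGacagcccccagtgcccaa
Hoxb4: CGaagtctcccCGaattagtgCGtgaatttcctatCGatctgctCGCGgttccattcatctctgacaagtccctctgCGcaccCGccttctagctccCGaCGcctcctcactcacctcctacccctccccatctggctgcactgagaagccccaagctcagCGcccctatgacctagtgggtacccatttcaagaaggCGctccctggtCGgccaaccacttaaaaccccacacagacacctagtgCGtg
Hoxd4: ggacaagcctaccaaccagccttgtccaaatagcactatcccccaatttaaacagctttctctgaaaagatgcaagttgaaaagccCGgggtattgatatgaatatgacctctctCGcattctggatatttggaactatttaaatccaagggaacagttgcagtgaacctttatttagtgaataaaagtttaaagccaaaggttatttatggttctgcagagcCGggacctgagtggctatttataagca
Hoxd3: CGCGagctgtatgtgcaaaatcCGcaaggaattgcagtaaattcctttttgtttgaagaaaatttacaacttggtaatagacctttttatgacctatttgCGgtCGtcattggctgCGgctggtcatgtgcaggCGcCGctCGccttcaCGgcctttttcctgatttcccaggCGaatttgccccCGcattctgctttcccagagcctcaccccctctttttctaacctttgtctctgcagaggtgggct
They hold 8 CpG in Hoxc4, 14 in Hoxb4, 3 in Hoxd4 and 12 in Hoxd3, so the detected Hoxd4 has the fewest. RefSeq entries matched 22 of 39 Hox genes, with 24 promoters. The 250 bases before the start held a median of 12.5 CpG in these (2 to 35), against a median of 6 over all 32851 promoters. The 13 promoters of genes detected on all 6 PSC arrays held a median of 8 (3 to 28), and the 9 of genes detected on none held a median of 20 (2 to 35). Those ranges overlap, and no test was made. The letters TGATTNAT, a form of the site that Pbx and Hox proteins bind together, searched on both strands, were found in Hoxa2 and in 1 of 2 promoters of Hoxd11, and in 2.82% of all promoters. Such a match is a description of these windows only.

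The genotypes were compared to ask whether heterozygous stellate cells carried a different set or amount of Hox transcripts. Hoxb13, near the detection limit, was higher in PSC HT, and the neighbours Hoxc5 and Hoxc4 were lower, while the other 24 Hox genes tested did not pass. Hoxb13 encodes the last homeodomain protein of the Hoxb cluster, known for its role in the tail bud and the prostate. Hoxc4 and Hoxc5 encode proteins of paralog groups 4 and 5 that act in neck and upper trunk patterning. With limma and Benjamini-Hochberg adjustment over 20886 genes, 3 of 27 tested Hox genes (11.1%) had an adjusted p under 0.05, against 7.73% of all genes tested. The one that was higher, Hoxb13, passed the filter only through PSC HT, so nothing is read from its count. Of 25 Hox genes detected on all 6 PSC arrays, limma called 0 higher, against 2.95% of all genes, and 2 lower, against 4.78%.

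Hoxb13 (probe at chr11:96057854-96057913, build mm9) had levels of -4.51, -4.29 and -4.46 in PSC HT, against -5.61, -5.16 and -5.71 in PSC WT. All PSC HT arrays were above all PSC WT arrays. Only 1 of 3 PSC WT arrays was well above background, so the gene entered the test through PSC HT alone, and its level there lies close to the detection limit. The fitted difference of 1.08 ± 0.16 on the log2 scale (SE, n = 3 each; limma, adjusted p = 0.0125) therefore rests in part on readings at background. With the normexp background correction the difference was 0.37 (limma, adjusted p = 0.0559), and with the authors' deposited log2 values it was 0.35.

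Hoxc5 (probe at chr15:102847783-102847842) had levels of -2.36, -2.12 and -2.32 in PSC HT, against -1.78, -1.72 and -1.75 in PSC WT. The groups did not overlap, and PSC HT was lower by -0.51 ± 0.09 (SE, n = 3 each; limma, adjusted p = 0.0213). Hoxc4 (probe at chr15:102867213-102867272) stood at 0.46, 0.41 and 0.50 in PSC HT, against 1.03, 0.89 and 0.82 in PSC WT. It too was lower on every PSC HT array, by -0.46 ± 0.08 (SE, n = 3 each; limma, adjusted p = 0.0241). The third gene of that end of the cluster, Hoxc6, had levels of 0.05, 0.20 and 0.01 in PSC HT, against 0.31, 0.28 and 0.21 in PSC WT. Its arrays did not overlap either, but its difference of -0.18 ± 0.08 did not pass (limma, adjusted p = 0.256), nor did it without PSC HT 3 (-0.14).

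The arrays were carried by 2 slides. Since the genotypes did not overlap for these 3 genes, the sign on each slide was fixed in advance, and only the sizes are informative. Hoxb13 differed by 1.13 on slide 1 and 1.15 on slide 2, Hoxc5 by -0.56 and -0.38, and Hoxc4 by -0.55 and -0.45. Without PSC HT 3, Hoxb13 differed by 1.10 and was still called, whereas Hoxc5 at -0.49 and Hoxc4 at -0.48 no longer passed. When each array was left out in turn, Hoxb13 was lost without PSC WT 3 (0.97; limma, adjusted p = 0.0511). Hoxc5 passed only without PSC HT 2 (-0.59), and was lost without each of the other 5 arrays (-0.53 to -0.46). Hoxc4 passed only without PSC WT 1 (-0.40), and was lost without each of the other 5 (-0.50 to -0.43). Across 20 settings Hoxc5 and Hoxc4 kept their sign in each and were called in 9, and Hoxb13 kept its sign in each of 19 and was called in 13. In the settings that only drop arrays the sign could not change.

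**Figure D2:**
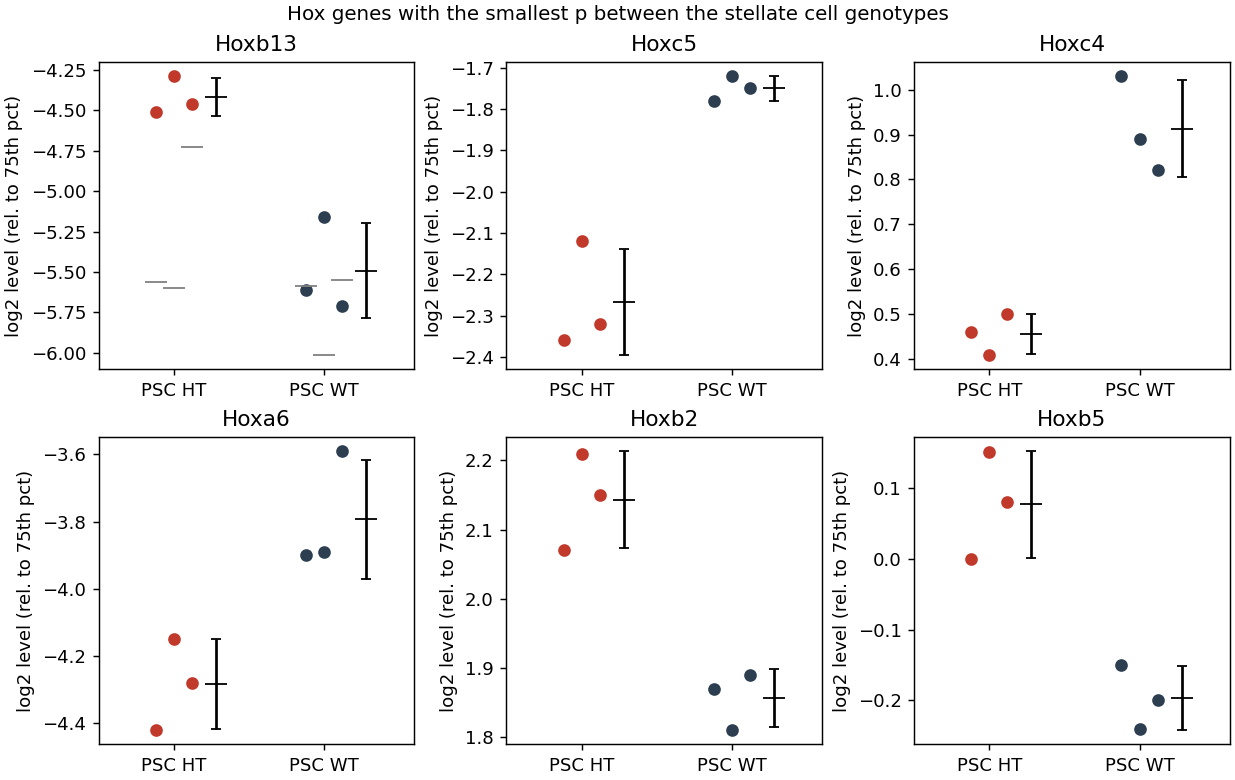
Levels (log2 signal relative to the array's 75th percentile; axes differ between panels) of the 6 Hox genes with the smallest p between genotypes, 3 PSC HT arrays left of 3 PSC WT arrays, with mean and SD beside the points and, for Hoxb13, grey dashes at each array's lowest level well above background. The genotypes do not overlap in any of the 6, and 2 of 3 Hoxb13 levels in PSC WT lie below the dash of their array.

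The next genes in order of p missed the threshold. Hoxa6 had levels of -4.42, -4.15 and -4.28 in PSC HT, against -3.90, -3.89 and -3.59 in PSC WT, a difference of -0.49 ± 0.12 (SE, n = 3 each; limma, adjusted p = 0.0617). Hoxb2, which acts in hindbrain segments and in neural crest, had 2.07, 2.21 and 2.15 in PSC HT, against 1.87, 1.81 and 1.89 in PSC WT, a difference of 0.28 ± 0.07 (limma, adjusted p = 0.0691). Hoxb5, known from gut and lung mesenchyme, had 0.00, 0.15 and 0.08 in PSC HT, against -0.15, -0.24 and -0.20 in PSC WT, a difference of 0.27 ± 0.07 (limma, adjusted p = 0.0822). Arrays of the genotypes did not overlap in any of these. Without PSC HT 3 the differences were -0.49, 0.28 and 0.27 (limma, adjusted p = 0.152, 0.180 and 0.204).

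Over all 27 tested Hox genes, 12 had arrays that did not overlap between genotypes (5 higher and 7 lower in PSC HT, 44.4%), against 29.1% of all genes. The median difference was -0.10 for Hox genes and -0.003 for all genes. By cluster it was -0.07 over 10 Hoxa genes, 0.08 over 9 Hoxb genes, -0.25 over 6 Hoxc genes and -0.32 over 2 Hoxd genes. Hoxb13, which passed the filter through PSC HT alone, is among the 9 Hoxb genes and the 5 higher, also without PSC HT 3. The 25 Hox genes detected on all 6 PSC arrays, which leave Hoxb13 out, gave 4 higher and 7 lower without overlap (44%). Their median difference was -0.12. Without PSC HT 3, 15 of 27 did not overlap (6 higher and 9 lower, 55.6%), against 37.2% of all genes, and the cluster medians were -0.11, 0.05, -0.26 and -0.36. The 24 genes that were not called had differences from -0.49 to 0.28, and their 95% intervals lay between -1.003 and 0.46. The genotypes detected nearly the same genes: 26 genes on all 3 PSC HT arrays and 26 on all 3 PSC WT arrays, with Hoxb13 in the first count only and Hoxa11 in the second only.

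**Figure D3:**
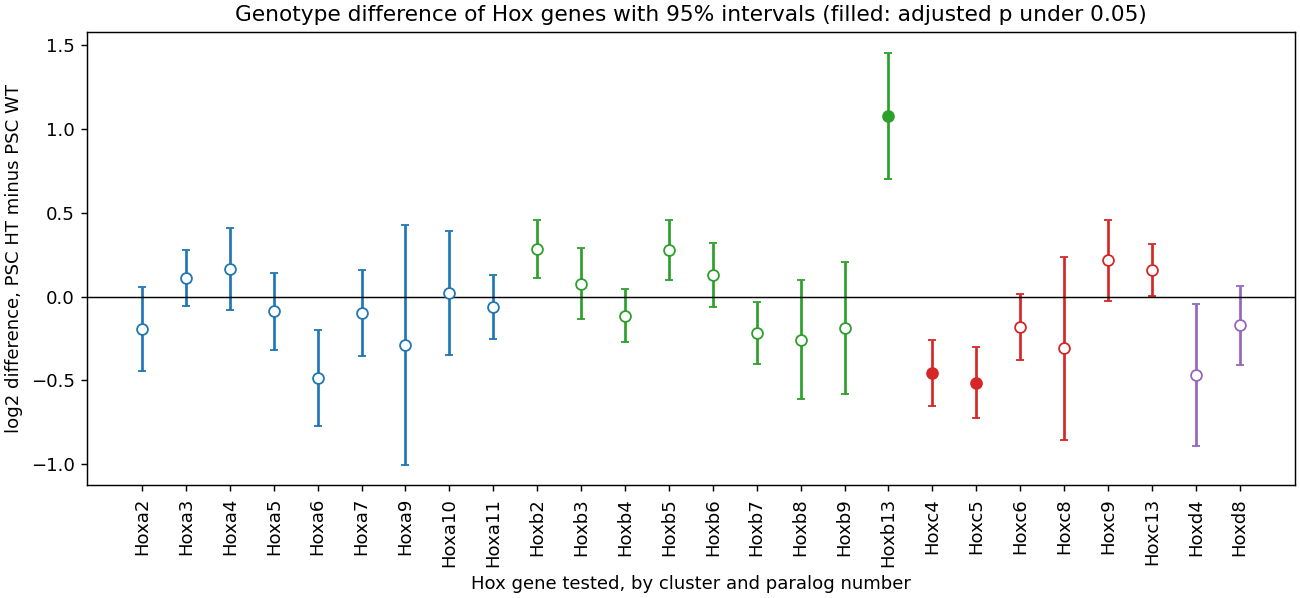
Difference in level (log2, PSC HT minus PSC WT) of each tested Hox gene shown, in order of cluster and paralog number, with 95% intervals from limma; filled points have an adjusted p under 0.05. Hoxb13 stands at 1.08, Hoxc4 and Hoxc5 at -0.46 and -0.51, and the other points lie between -0.49 and 0.28.

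Genes with several probes did not always give the same answer. The second probe of Hoxb9 read -1.66, -1.69 and -1.70 in PSC HT, against -2.09, -1.88 and -2.01 in PSC WT, a difference of 0.31 ± 0.08 (limma, adjusted p = 0.0778), while the brighter probe gave -0.19 ± 0.16. Hoxd8 gave -0.17 ± 0.10 on its brighter probe and 0.14 ± 0.09 on the other. The 3 probes of Hoxb3 gave 0.08, -0.02 and -0.16. Both probes had the same sign for Hoxb2 (0.28 and 0.32), Hoxb8 (-0.26 and -0.38), Hoxc6 (-0.18 and -0.22) and Hoxa3 (0.11 and 0.12 on its 2 detected probes). The second Hoxb2 probe lies on the strand opposite to the other Hoxb probes. Since the strands cannot be told apart here, it is not settled which transcript it reads. Hoxb13, Hoxc5 and Hoxc4 have 1 probe each.

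Markers of other cell types also differed between the genotypes, where 2.95% of all genes were called higher in PSC HT and 4.78% lower. Of 11 tested macrophage markers 8 were higher in PSC HT and 0 lower, with a median difference of 2.42. Ptprc (-0.16), Itgam (-0.05) and Cd14 (1.61) were not called. C1qa, Adgre1 and C1qc were higher by 3.04, 2.87 and 2.83, and Msr1, with 2 of 3 PSC WT arrays well above background, by 3.18. Without PSC HT 3, 2 of 12 tested were called higher, with a median of 2.65. Their summed linear level ran from 102 to 199 in PSC HT, against 54.0 to 68.0 in PSC WT. Of 7 mesothelial markers 0 were higher and 6 lower (median -2.16), among them Upk3b by -2.70 and Upk1b by -2.24, with sums of at most 17.5 in PSC HT, against 39.7 to 49.5 in PSC WT. Of 6 tested endothelial markers 0 were higher and 5 lower (median -1.98), among them Emcn by -2.95, with sums of 2.22 to 2.67 in PSC HT, against 4.40 to 4.67 in PSC WT. Cdh5, one of the 5, was well above background on no PSC HT array and was at least 1.95-fold higher in PSC WT. The endothelial receptor genes Tek and Tie1 were well above background on no PSC array. Of 5 tested Schwann cell markers 1 was higher (Ngfr, 1.43) and 2 lower (Mbp, -1.59, and S100b, -0.67), with sums of 1.49 to 1.92 in PSC HT, against 4.13 to 5.23 in PSC WT. Of 11 stellate and fibroblast markers 1 was higher (Postn, 0.56) and 0 lower, with sums of 1132 to 1203 in PSC HT, against 959 to 1293 in PSC WT. Of the 6 epithelial and 1 acinar markers tested, 0 passed (limma; 0 and 1 at an unadjusted p under 0.05), and the acinar sum was 2.72 to 3.38 in PSC HT, against 2.35 to 2.64 in PSC WT. Without PSC HT 3 the same numbers of mesothelial, endothelial, Schwann cell and stellate markers were called in each direction, and 2 of 6 epithelial markers were called lower. The sums do not measure these cell types alone. In KC the mesothelial, endothelial and Schwann cell sums were 156 to 202, 14.1 to 15.8 and 7.86 to 9.01, above those in PSC. Msln, Egfl7 and Mbp of these lists had mean levels of 7.51, 3.90 and 2.99 in KC. The part of other cell types in the differences between genotypes was not tested.

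Genes that act with or on Hox genes were compared in the same fit. Of all genes in it 2.95% were called higher in PSC HT and 4.78% lower, and 4633 of 20886 had an unadjusted p under 0.05 (limma). Among 9 TALE cofactors 0 were higher and 1 lower in PSC HT. This was Meis2, at 1.37, 1.47 and 1.47 in PSC HT, against 1.93, 1.82 and 1.81 in PSC WT, a difference of -0.42 ± 0.07 (limma, adjusted p = 0.0236). No array of PSC HT reached the lowest of PSC WT, but without PSC HT 3 Meis2 was not called (-0.43; limma, adjusted p = 0.0683). Of 16 Polycomb genes and 9 Trithorax and H3K27 demethylase genes 0 were called (limma; 1 and 1 at an unadjusted p under 0.05), with medians of 0.06 and -0.02.

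Of 11 tested retinoic acid receptor and enzyme genes 0 were higher and 2 lower in PSC HT, against 2.95% and 4.78% of all genes. The 2 that were lower encode enzymes that make retinoic acid. Aldh1a1 had 2.80, 3.22 and 3.23 in PSC HT, against 4.10, 4.32 and 4.40 in PSC WT (-1.19 ± 0.15; limma, adjusted p = 0.00729). Aldh1a2 had 2.03, 1.76 and 2.00 in PSC HT, against 2.99, 2.73 and 2.66 in PSC WT (-0.86 ± 0.12; limma, adjusted p = 0.0107). Neither pair of groups overlapped. Both were also called without PSC HT 3 (-1.26 and -0.90; limma, adjusted p = 0.0194 and 0.0350).

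Of the ParaHox and Cdx genes, only Gsx1 could be tested between genotypes, and it was not called, with 1 of 3 PSC HT arrays well above background (-0.91; limma, adjusted p = 0.282). Without PSC HT 3 its difference was -0.39 (limma, adjusted p = 0.180). Other transcription factors mark regions of gut and spleen mesenchyme. Of 11 tested, 3 were higher and 2 lower in PSC HT, against 2.95% and 4.78% of all genes. Gata4 had -4.60, -4.94 and -4.30 in PSC HT, against -1.77, -1.81 and -1.72 in PSC WT (-2.85 ± 0.16; limma, adjusted p = 0.00085). Gata6 had 1.00, 1.20 and 1.18 in PSC HT, against 2.69, 2.76 and 2.69 in PSC WT (-1.58 ± 0.08; limma, adjusted p = 0.000818). Both encode zinc finger factors of gut and pancreas development. Tcf21, Tbx3 and Nkx3-2 were higher by 0.64, 0.54 and 0.45 (limma, adjusted p = 0.0232, 0.0121 and 0.0264). Without PSC HT 3, Gata4 (-3.01), Gata6 (-1.61) and Tbx3 (0.53) were still called, and Tcf21 (0.61) and Nkx3-2 (0.45) were not.

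The cell types were compared with PSC WT set against KC. The PSC WT arrays also served in the comparison of genotypes. All 26 Hox genes tested were higher in PSC WT, against 36.1% of all 21928 genes tested, but most passed the filter through the PSC arrays alone, so that the count is no support in itself. The groups did not overlap in any of the 26 (75.6% of all genes), which the same filter comes close to fixing. For the 23 with no KC array well above background the size is a lower bound, set by each array's detection limit. These bounds ran from 1.58-fold to 335-fold, with a median of 49.2-fold.

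The Hoxb cluster gave most of the largest bounds. A bound grows with the brightness of its probe, so bounds of different genes are not comparable as amounts. Hoxb7, a gene of the thoracic region, was at 2.92, 2.78 and 2.81 in PSC WT, against -7.79, -7.69 and -7.44 in KC, at least 335-fold higher. Hoxb9 was at 2.14, 2.01 and 1.62 in PSC WT, against -7.95, -7.78 and -7.58 in KC, at least 178-fold higher. Both had KC readings far below the detection limit on every array. Hoxb2 was at 1.87, 1.81 and 1.89 in PSC WT, against -7.84, -7.72 and -7.54 in KC, at least 170-fold higher. Hoxb4 was at 1.85, 1.79 and 1.86 in PSC WT, against -7.22, -7.73 and -7.45 in KC, at least 167-fold higher. Hoxb6 was at 1.68, 1.56 and 1.5 in PSC WT, against -7.83, -7.80 and -7.51 in KC, at least 140-fold higher. None of these 5 Hoxb genes overlapped between the cell types. Hoxa3, which acts in pharyngeal arch organs, was at 1.47, 1.51 and 1.46 in PSC WT, against -7.80, -7.63 and -7.46 in KC, at least 130.9-fold higher. Hoxb8 was at 1.07, 0.82 and 1.19 in PSC WT, against -7.94, -7.85 and -7.56 in KC, at least 95.7-fold higher. Adjusted p-values of these 7 lay between 1.03e-08 and 3.17e-08 (limma), and they rest on KC readings at background. PSC HT against KC gave bounds of the same order, 288-fold for Hoxb7 and 156-fold for Hoxb9. At the low end, Hoxa11 was at least 1.58-fold, Hoxa10 at least 2.91-fold, Hoxc8 at least 3.13-fold and Hoxa6 at least 3.39-fold higher in PSC WT. Hoxc5, well above background on 1 of 3 KC arrays, was at -1.78, -1.72 and -1.75 in PSC WT, against -5.56, -4.75 and -6.06 in KC, a difference of 3.71 ± 0.31 (limma, adjusted p = 4.98e-05).

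Hoxb3 and Hoxa9 were the exceptions, being detected in both cell types. Hoxb3, which acts in hindbrain and pharyngeal patterning, stood at -1.82, -1.69 and -1.69 in PSC WT, against -2.70, -2.32 and -2.89 in KC, higher by 0.90 ± 0.16 (limma, adjusted p = 0.00186). Its other 2 probes were also well above background on all 15 arrays. The brightest Hoxa9 probe was at -4.07, -4.46 and -3.25 in PSC WT, against -4.91, -4.60 and -4.91 in KC, higher by 0.88 ± 0.30 (limma, adjusted p = 0.0355). Hoxa9 is a gene of trunk patterning and of blood progenitors. That probe spans chr6:52174477-52175581 (mm9), more than its own length, so it bridges 2 stretches of the genome. Neither of the other 2 Hoxa9 probes was well above background in PSC or in KC, and with the median of the 3 probes the difference was -0.15. The Hoxa9 call was lost without KC 1 (0.83), KC 3 (0.83) or PSC WT 1 (0.95), on slide 2 alone (0.75; limma, adjusted p = 0.378) and with median scaling (0.50) or quantile normalization (0.50). Without PSC WT 3, its brightest array, the difference was 0.54 and passed.

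**Figure D4:**
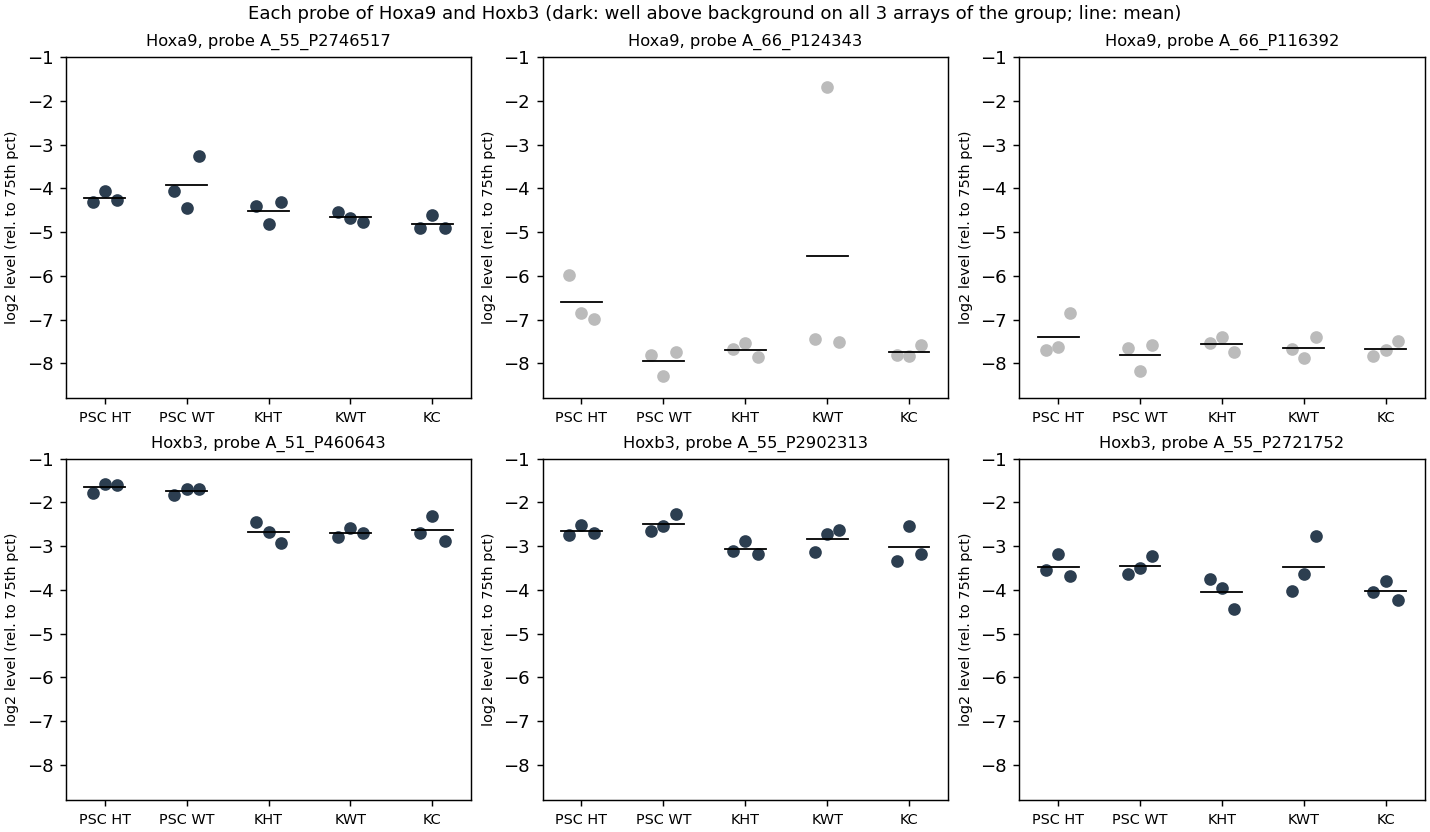
Levels (log2 signal relative to the array's 75th percentile) of each of 3 Hoxa9 probes (top) and 3 Hoxb3 probes (bottom) on 3 arrays of PSC HT, PSC WT, KHT, KWT and KC, with a line at each mean; dark points belong to groups in which all 3 arrays were well above background. All Hoxb3 probes are dark in every group, while for Hoxa9 only 1 probe is, and 1 KWT array stands apart at -1.68 on another.

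Hox-related genes split between the cell types. Of 9 TALE cofactors 6 were higher and 1 lower in PSC WT. Pknox2, well above background on no KC array, was at least 63.8-fold higher (limma, adjusted p = 2.16e-08), while Meis3 and Pbx3 were higher by 1.15 and 0.48. Meis1, a main partner of Hox proteins, was at 3.54, 3.40 and 3.40 in PSC WT, against -1.65, -1.77 and -1.41 in KC (5.05 ± 0.12; limma, adjusted p = 1.01e-07). Of 16 Polycomb genes 6 were higher and 7 lower. Ezh2, the H3K27 methyltransferase, was at 0.28, 0.13 and 0.14 in PSC WT, against 2.01, 2.16 and 2.07 in KC, lower by -1.89 ± 0.09. Cbx7, a chromobox subunit, was lower by -2.80 ± 0.15, and its relative Cbx8 was higher by 1.06. Of 9 Trithorax and H3K27 demethylase genes 1 was higher and 7 lower. The one that was higher, Kdm6b, encodes an H3K27 demethylase and differed by 1.13 ± 0.14. Dpy30, Wdr5 and Men1, which serve in H3K4 methyltransferase complexes, were lower by -1.71, -1.38 and -0.80. Of all genes 71.4% were called between these cell types (35.2% lower), so such shares are to be read against that background.

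The ParaHox and Cdx genes are relatives of the Hox genes, and 1 of 3 tested was higher in PSC WT and 2 lower. Of all genes 36.1% were higher and 35.2% lower. Each of the 3, and several genes of the next lists, passed the filter through 1 group alone. That comes close to fixing their direction, so these counts are no support in themselves. Pdx1, the pancreatic master regulator, was at -7.84, -7.71 and -7.79 in PSC WT, against 2.94, 2.91 and 2.99 in KC, at least 406-fold higher in KC (limma, adjusted p = 1.02e-08). Cdx2, the intestinal regulator, was at -7.69, -8.31 and -7.71 in PSC WT, against 2.20, 2.41 and 2.33 in KC, at least 261-fold higher in KC. Gsx1 was the one that was higher, at least 1.47-fold, with no KC array well above background. Neither Pdx1 nor Cdx2 was well above background in PSC WT. Of 11 tested retinoic acid genes 9 were higher in PSC WT and 0 lower, among them Aldh1a2 by 6.69 ± 0.15, Cyp26b1 by 5.56 ± 0.18, Aldh1a3 by 4.14 ± 0.12 and the receptor gene Rarb, not well above background in KC, at least 30.6-fold. Of 11 tested regional factors of mesenchyme 9 were higher and 1, Gata4, lower (-2.55 ± 0.10). Among the 9, Isl1, Nkx2-5 and Nkx3-2 were also well above background on no KC array, besides those named next. Foxf1, a factor of gut mesenchyme, Tbx3 and Barx1 were well above background on no KC array, and were at least 186-fold, 74.9-fold and 50.8-fold higher in PSC WT. Osr1, with 2 of 3 KC arrays well above background, was higher by 6.0 ± 0.17.

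The media were compared to ask whether factors from stellate cells change the Hox genes of cancer cells. Only Hoxa9 and Hoxb3 could be tested, and limma called 0 of 2 in each comparison, also at an unadjusted p under 0.05. The share of all 19687 genes called was 5.96% for KWT against KC, 5.47% for KHT against KC and 0% for KHT against KWT, where 960 genes had an unadjusted p under 0.05. Hoxa9 was at -4.40, -4.81 and -4.32 in KHT, -4.54, -4.68 and -4.77 in KWT, and -4.91, -4.60 and -4.91 in KC. The 3 groups overlap. Its difference from KC was 0.30 in KHT (95% interval -0.03 to 0.62; limma, adjusted p = 0.305) and 0.15 in KWT (-0.18 to 0.47; limma, adjusted p = 0.613). On slide 1 these were 0.55 and 0.37, and on slide 2 they were -0.21 and -0.12.

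Hoxb3 was at -2.45, -2.68 and -2.93 in KHT, -2.80, -2.59 and -2.71 in KWT, and -2.70, -2.32 and -2.89 in KC. Its difference from KC was -0.05 in KHT (-0.43 to 0.33) and -0.06 in KWT (-0.44 to 0.32), with adjusted p = 0.912 and 0.864 (limma). KHT and KWT differed by 0.15 for Hoxa9 (-0.18 to 0.48) and by 0.01 for Hoxb3 (-0.36 to 0.39). Each of the other 37 Hox genes had at least 1 array below that limit in KHT, in KWT and in KC.

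Of the genes that act with or on Hox genes, 1 TALE cofactor and 2 retinoic acid enzymes changed in both conditioned media. Of all genes, 2.97% were higher and 2.5% lower in KHT than in KC, and 2.8% were higher and 3.15% lower in KWT than in KC. Meis2 was at 0.97, 0.91 and 0.91 in KHT, 1.01, 0.98 and 1.00 in KWT, and 1.45, 1.49 and 1.53 in KC. It fell by 0.56 ± 0.05 in KHT and by 0.50 ± 0.05 in KWT (limma, adjusted p = 0.00123 and 0.00144), and was the only one called of 8 tested TALE cofactors in each. Aldh1a2 was higher by 0.48 ± 0.11 in KHT and 0.86 ± 0.11 in KWT (limma, adjusted p = 0.0489 and 0.00404). Cyp26b1, which breaks retinoic acid down, was lower by -1.24 ± 0.18 in KHT and -1.45 ± 0.18 in KWT (limma, adjusted p = 0.00646 and 0.00264). These were the only ones called of 9 tested retinoic acid genes. Both comparisons share the KC arrays. Of 16 Polycomb, 9 Trithorax and H3K27 demethylase, 3 ParaHox and Cdx genes and 4 noncoding RNAs of the clusters tested, limma called 0 in either. At an unadjusted p under 0.05 the counts were 1, 1, 0 and 0 in KHT and 4, 1, 1 and 0 in KWT. Of 3 tested regional factors of mesenchyme only Gata6 was called, lower by -0.29 in KHT and -0.32 in KWT.

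Other probes inside the clusters were set beside the Hox genes. The Hox probes span 103 kb in Hoxa, 171 kb in Hoxb, 108 kb in Hoxc and 93.8 kb in Hoxd (mm9), and 34 further probes lie within. Of these, 9 were well above background on all 6 PSC arrays and no cancer cell array, 8 on all 15 and 8 on none. Hoxb5os, whose probes lie on the strand opposite to the Hoxb genes, had 1 PSC-only probe and 1 on all 15 arrays. Its PSC-only probe read 2.93, 3.14 and 3.23 in PSC HT, against 2.75, 2.69 and 2.79 in PSC WT. The Hoxaas3 probes also split in this way. Its PSC-only probe lies on the strand of the Hoxa probes and the other on the opposite strand, so they need not read the same RNA. Haglr and Mira, noncoding RNAs of the Hoxd and Hoxa clusters, were on all 15 arrays, and the probe named HOTAIR was on none. Of 6 noncoding RNAs tested between genotypes limma called 0, and 1 (Hoxb5os, 0.26 ± 0.10; adjusted p = 0.211) had an unadjusted p under 0.05. In PSC WT against KC 4 of 6 were higher and 0 lower, against 36.1% and 35.2% of all genes. The 4 were Hoxaas2 (on 1 of 3 KC arrays) by 4.88 ± 0.14, Haglr by 1.77 ± 0.13, Hoxb5os by 1.69 ± 0.15 and Hoxa11os by 1.69 ± 0.11. These fits read Hoxb5os and Hoxaas3 from the probe that was detected on all 15 arrays. The PSC-only probe of Hoxb5os read -8.03, -7.87 and -6.64 in KC. Evx2, a homeobox gene beside the Hoxd cluster, was the one Evx gene tested. It was higher in PSC WT than in KC by 0.72 ± 0.14 (limma, adjusted p = 0.00367), and it was not called between genotypes (-0.23; limma, adjusted p = 0.519) or by medium (0.03 in KHT and 0.29 in KWT; limma, adjusted p = 0.947 and 0.257).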

How the data were processed

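The authors' deposited scanner files give 1-channel Cy3 intensity values made with Agilent Feature Extraction (10.7.3.1), which, per the file headers, subtracted background and detrended each array by itself. A deposited matrix of log2 values, of unstated preparation, was an alternative within a cell type only (column medians 7.11 for PSC and 7.06 for cancer cells).

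Each processed signal was turned into log2 and set against the 75th percentile of its array. Repeat spots were averaged (59305 spots, 300 probes spotted repeatedly), and each gene was read from its brightest probe. Genes entered a fit when at least 1 of its groups had that probe detected on every array. The R package limma (3.58.1, R 4.3.3) was run on PSC arrays, on cancer cell arrays and on PSC WT with KC, with Benjamini-Hochberg adjustment over all genes at 0.05, and was tested on simulated data. "At least N-fold" sets a group mean against the higher, per array, of the detection limit and the reading. Coordinates of probes are mm9 positions from the files; promoters are from RefSeq, GRCm38.p6, which also updated names of other genes.

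The Hox genes and the 15 gene lists were chosen with earlier results of these data known. Named by rule were the Hox genes called between genotypes, those tested by medium, up to 8 called between cell types by size, those detected in KC, those whose probes differ in sign, and up to 4 called members of a list by size, some of these as differences only. Genes next to the threshold, genes at the detection limit, and Hoxc6 were added after their values were seen. A few genes that the rule names are counted but not reported here by name. Groups share replicate numbers. Arrays of the same number deviated together in KWT and KC (r = 0.22, 0.31 and 0.26 over genes). Some arrays of different number did so to a like degree (r = 0.25 for KWT 1 with KC 3, 0.22 for KWT 2 with KC 1 and 0.22 for KWT 3 with KC 2). The check therefore does not settle whether the numbers mark pairs there. In the other comparisons not every same-number correlation was above 0.1, and pairing is not settled there either. Alternatives covered background correction, scaling, filter, choice of probe, slide, replicate block, variance model, threshold and each array left out. Reading each probe by itself, counting detection over probes, and testing the gene lists without PSC HT 3 were added after the data were seen. Other software was Python (3.11.15) with pandas (2.3.3), numpy (2.4.6) and matplotlib (3.10.9), and the R package for data tables (1.17.8).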

Additional observations from a re-analysis of the deposited data

Results flagged for a closer look

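A probe of Hoxa9 that was well above background on no PSC or KC array read -1.68 on KWT 2, against -7.83 to -7.57 in KC, a signal outside the probes that stood for the genes in the comparisons. The other KWT arrays read -7.45 and -7.51 on it. A second probe of Hoxc13 read -2.94 on KWT 1, against -8.02 to -7.64 in KC, and it too was dark on the PSC arrays, where the main Hoxc13 probe was detected. Each signal rests on 1 array, and the cause was not tested.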

How the results depend on the processing

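Of 3 Hox genes called between PSC HT and PSC WT, the count was 0 with no filter on dim probes, 0 on slide 1 alone, 0 on slide 2 alone and 0 at an adjusted p under 0.01, and 5 with a trended, robust variance. With the replicate number as a block it was 1 (Hoxb13). Same-number correlations of these arrays were 0.24, 0.06 and -0.10, and PSC HT 2 with PSC WT 3 reached 0.40. So few arrays do not settle whether the numbers mark pairs. In KWT against KC, where pairing was not settled either, the block called 0 Hox genes as before. Leaving out 1 array gave 0 to 2. Within slides 1 group has a single array, which is assumed to vary like the others. Normexp, quantile and median scaling, the filter on all arrays, the probe median, the slide block, 1 fit of all arrays and the deposited log2 values gave 2 to 4. For KWT against KC, slide 2 alone called 1 Hox gene, Hoxd3, lower by -6.34, through the single bright spot of KC 2. In PSC WT against KC a filter on all arrays left 2 called, since it tests no gene that is dark in KC; leaving out 1 array gave 25 to 26.

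The 2 Hox genes tested by medium changed sign between settings without being called. Hoxb3 in KWT against KC was 0.16 with the probe median, 0.000212 on slide 1, 0.10 without KC 2 and 0.00839 with the deposited values. In KHT against KC it was 0.000549 with quantile normalization, 0.00997 with median scaling, 0.10 on slide 1, 0.07 without KHT 3, 0.11 without KC 2 and 0.0188 with the deposited values. In KHT against KWT it was -0.0128 with normexp, -0.21 with the probe median, -0.0305 on slide 2, -0.11 without KHT 1 and -0.04 without KWT 1. Hoxa9 was -0.12 (KWT against KC), -0.21 (KHT against KC) and -0.0886 (KHT against KWT) on slide 2, and with the probe median it was -1.06 in KHT against KWT and -0.15 in PSC WT against KC. When 1 array was left out, Hoxb3 ranged from -0.19 to 0.10 in KWT against KC, from -0.18 to 0.11 in KHT against KC and from -0.11 to 0.13 in KHT against KWT. The cause was not tested.

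Over all genes, no filter on dim probes gave 401 calls between genotypes, 467 for KWT and 334 for KHT against KC, the probe median 765 and 633 and median scaling 638 and 535 for KWT and KHT against KC, and 1 fit of all arrays 2484 between genotypes. Slide 1 and slide 2 alone gave 0 and 433 between genotypes, 166 and 64 for KWT against KC, 0 and 0 for KHT against KC, and slide 1 alone 115 for KHT against KWT. At an adjusted p under 0.01 there were 520 between genotypes, 472 for KWT and 327 for KHT against KC. Leaving out 1 array gave 552 to 1280 calls between genotypes (1615 with all), 578 to 1004 for KWT (1173) and 496 to 871 for KHT (1077) against KC, and 1 to 6 for KHT against KWT (0). Genes near the detection limit, such as Hoxb13, are limited by signal over background.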

Other observations

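Further Hox probes were bright on 1 array of a group only. Hoxd3 read -1.42 on KC 2, while its other 14 readings lay between -8.09 and -4.77. The dimmer of 2 detected Hoxa3 probes read -2.97 on KC 1, against -7.69 and -7.52 on the other KC arrays. Hoxa13 read -5.10 on KC 3, with its other readings between -8.28 and -7.00.

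Besides Cdh1, PSC HT 3 carried Pdx1 at -3.82 and Cdx2 at -3.90, against -7.84 to -7.71 and -8.31 to -7.69 in PSC WT, and the acinar enzyme gene Cpa1 at -1.32.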
